A study of Mus musculus with 12 samples.

Results

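Mitochondrial ribosomal protein genes were examined in fat of mice with and without NDUFS4 in their adipocytes. Every protein-coding gene whose symbol begins with Mrpl or Mrps and a number was taken, which gave 77 genes of the 17599 genes listed in either of 2 tables, for inguinal white fat (iWAT) and for brown fat (BAT). By symbol, 48 belong to the large subunit and 29 to the small subunit, and all 77 are in both tables. The study compared C57BL/6 mice on a high-fat diet at room temperature: KO females, KO males, WT females and WT males, with 3 white fat libraries in each of the 4 groups. KO means that NDUFS4, which belongs to respiratory complex I, is missing from adipocytes. The driver of the deletion, the mice's age and the number of animals per library were looked for (not given in the sources used here). What the authors' deposited tables hold is 1 contrast, the interaction of genotype and sex, which is the KO effect in females minus that in males, in log2 units. That females come first is taken from the tables' names, and the signs of all values depend on it.

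The mitochondrial ribosome translates the few mRNAs of the mitochondrial genome, all of which encode hydrophobic subunits of the respiratory chain and of ATP synthase. Its proteins are encoded in the nucleus, made on cytosolic ribosomes and imported, and they join ribosomal RNAs made inside the organelle. The large subunit forms peptide bonds and holds the exit tunnel, and the small subunit binds and decodes the mRNA. Some of its proteins descend from the bacterial ribosome and others have no bacterial relative. Brown fat, whose heat production rests on respiration, is dense in mitochondria, and white fat holds far fewer.

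Values of single libraries and of the 4 groups are not analysed here, because the library columns carry names that match no label. Sequencing depth is unknown for the same reason. An interaction above 0 can therefore come from a higher value in KO females, from a lower value in KO males or from the WT mice of either sex. In bulk tissue, fewer cells of a type and less RNA per cell cannot be told apart. For Ndufs4 itself the interaction was 0.89 ± 0.38 (log2 units, standard error) in white fat and -0.10 ± 0.14 in brown fat in the authors' deposited tables (adjusted p from limma 0.169 and 0.946), which does not check the genotype labels. Of 8 adipocyte markers, all were listed in both tables, with mean log2 expression of 6.40 to 12.80 in white fat and 4.24 to 12.16 in brown fat. All 8 had an interaction above 0 in white fat (median 0.37), and in brown fat 5 of 8 did (median 0.12), with none called (limma, 1 of 8 and 2 of 8 at an unadjusted p of 0.05). The shares of all genes at that unadjusted p were 24.5% in white fat and 6.51% in brown fat. Lymphocyte markers fell in the same white fat contrast: 8 of 8 T cell markers were called below 0 (median interaction -8.00, median standard error 1.71), as were 3 of 6 B cell markers (-8.51, 2.41). Of all genes, 3.69% were called below 0 there. The 6 skeletal muscle markers (median 3.74, median standard error 2.69) and the 6 thermogenic adipocyte markers (3.23, 2.67) were all above 0 with none called. At an unadjusted p of 0.05 (limma), 2 of 6 and 0 of 6 passed, against 24.5% of all genes. In brown fat 3 of 8 T cell and 3 of 6 B cell markers were listed, with mean log2 expression no higher than 0.94, and the 6 muscle markers had a median of -3.15. The part of these cell types in the results below was not tested.

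In white fat, mitochondrial ribosomal protein genes lay above 0 nearly without exception, but no single gene passed the test. Of the 77 genes, 73 had a positive interaction in the authors' deposited table, with a median of 0.76. Across the 16738 genes listed for white fat, 55.9% were positive and the median was 0.13, and over the 8369 genes at or above the median expression 59.6% were positive with a median of 0.15. At an adjusted p of 0.05 (limma, Benjamini-Hochberg over all genes), 0 of 77 were called, against 4.75% of all genes (1.06% above 0 and 3.69% below). At an unadjusted p of 0.05, 31 of 77 passed and all 31 were above 0, against 24.5% of all genes (11.9% above 0 and 12.6% below). At an adjusted p of 0.10, 13 of 77 passed, all above 0, against 12.1% of all genes (4.67% above 0 and 7.44% below). With the median of all genes subtracted, 21 of 77 (27.3%) had an unadjusted p under 0.05, against 23.7% of all genes. All 21 were above 0, as were 8.36% of all genes at that threshold, and 0 of 77 passed the adjustment.

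The 48 large subunit genes had a median interaction of 0.70 in white fat, with the middle of the group between 0.53 and 0.97 (quartiles) and a full range of -0.55 to 1.79. Above 0 were 45 of 48, and 17 (35.4%) had an unadjusted p under 0.05. That share was 24.5% over all genes and 28.9% over genes at or above the median expression. All 17 were above 0, as were 11.9% of all genes at that threshold. Less the all-gene median, the group stood at 0.56. Mrpl50 (ENSMUSG00000044018.4, chromosome 4, 49512596 to 49521093, GRCm39), a protein without a bacterial relative, had the smallest p of the group. Its interaction in the authors' deposited table was 1.02 ± 0.29 (95% interval 0.40 to 1.65), with an adjusted p of 0.0570 from limma. Mrpl49, another protein of that kind (chromosome 19, 6103652 to 6107815), stood at 0.90 ± 0.28 (adjusted p = 0.0714) according to the authors' deposited table. Mrpl16, whose bacterial counterpart lies near the peptidyl transferase centre, had 1.29 ± 0.41 (0.39 to 2.18, adjusted p = 0.0830), again from the authors' deposited table. The same table gave Mrpl28 1.33 ± 0.44 (adjusted p = 0.0871) and Mrpl42 1.05 ± 0.36 (adjusted p = 0.0980). The genes named here were chosen for their low p, each under 0.05 unadjusted, so their 95% intervals had to leave out 0. That adds no evidence for them, and each adjusted p is above 0.05.

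The highest large subunit value was that of Mrpl34, at 1.79 ± 0.76 in the authors' deposited table for white fat, with an interval of 0.16 to 3.42 that is wider than those of the genes above. Mrpl55 followed at 1.40 ± 0.51 (adjusted p = 0.112, the authors' deposited table). Mrpl12, which forms the flexible stalk that recruits translation factors, had 1.32 ± 0.45 (adjusted p = 0.0983) according to the authors' deposited table. At the other end were the 3 large subunit genes below 0. Mrpl23 had -0.55 ± 0.78, Mrpl52 -0.30 ± 0.31 and Mrpl22 -0.16 ± 0.54 in the authors' deposited table, and all 3 intervals include 0. In bacteria the counterparts of Mrpl22 and Mrpl23 lie at the exit tunnel. Mrpl45, which holds the mitochondrial ribosome to the inner membrane at that exit, was at 0.68 ± 0.45 (adjusted p = 0.372) according to the authors' deposited table. Mrpl19 was close to 0 at 0.06 ± 0.43 in the authors' deposited table, and at -0.07 less the all-gene median.

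The 29 small subunit genes had a median of 0.84 in white fat (quartiles 0.58 and 1.21, range -0.50 to 2.14), and 0.71 less the all-gene median. Above 0 were 28 of 29, and 14 (48.3%) had an unadjusted p under 0.05, all above 0. That share was 24.5% over all genes and 28.9% over genes at or above the median expression. The difference between the subunits' medians was not tested. The standard error of a member had a median of 0.40 in each of the subunits. Mrps25 (chromosome 6, 92146506 to 92161014) and Mrps22 (chromosome 9, 98470783 to 98483713), both without a bacterial relative, led by p. Mrps25 had 1.01 ± 0.29 (0.39 to 1.63, adjusted p = 0.0576) according to the authors' deposited table. For Mrps22 the authors' deposited table gave 0.99 ± 0.28 (0.38 to 1.60, adjusted p = 0.0594). Mrps21 had 1.51 ± 0.44 (adjusted p = 0.0600), Mrps7, of the head of the small subunit, 0.93 ± 0.30 (adjusted p = 0.0793) and Mrps31 1.22 ± 0.40 (adjusted p = 0.0871) according to the authors' deposited table.

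The highest small subunit values had wide errors. Mrps28 stood at 2.14 ± 0.98 in the authors' deposited table, with an interval of 0.02 to 4.25 and a low mean log2 expression of 2.68. Mrps27, a protein with pentatricopeptide repeats, had 1.77 ± 0.75 (adjusted p = 0.170), also from the authors' deposited table. Mrps10 was the single small subunit gene below 0, at -0.50 ± 0.62 in the authors' deposited table, and Mrps26 was the lowest of those above 0, at 0.45 ± 0.34. Mrps18a, Mrps18b and Mrps18c are paralogs with a common bacterial relative. Of these, Mrps18a had 1.66 ± 0.66 (adjusted p = 0.143), Mrps18b 1.14 ± 1.25 (adjusted p = 0.601) and Mrps18c 0.48 ± 0.32 (adjusted p = 0.363) according to the authors' deposited table. Their intervals overlap. Mrps18b had a mean log2 expression of -0.23, the lowest of all 77 genes in white fat. In structures of the mammalian ribosome the Mrps18a and Mrps30 proteins sit in the large subunit, and Mrps36 is known as a component of the 2-oxoglutarate dehydrogenase complex. With these 3 reassigned or left out, the medians were 0.72 for 50 large subunit genes and 0.89 for 26 small subunit genes.

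**Figure D1:**
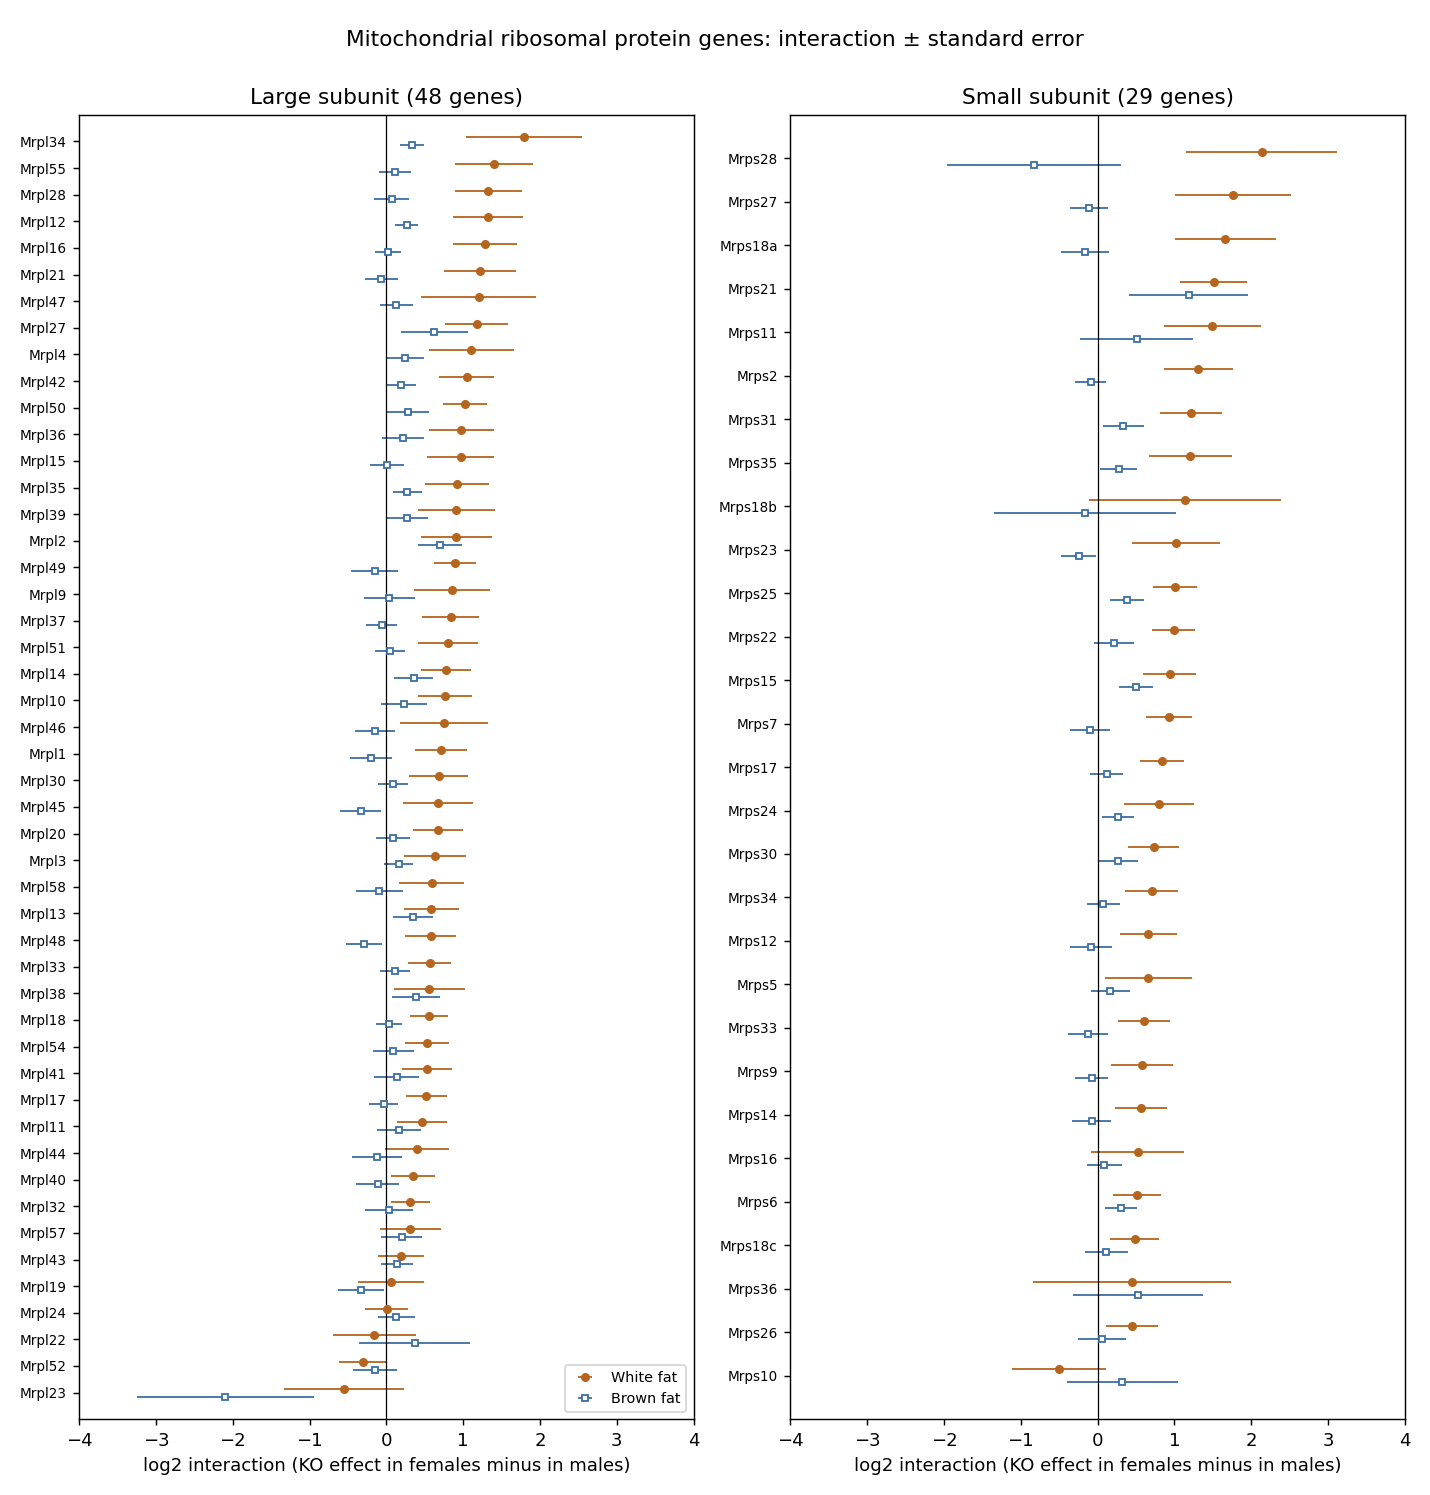
Log2 interaction (x axis, KO effect in females minus that in males) of the 48 large subunit genes (left) and the 29 small subunit genes (right), ordered by the white fat value, in white fat (filled circles) and brown fat (open squares), with bars for 1 standard error. White fat values lie above 0 for 73 of 77 genes, and brown fat values lie around 0, with 52 of 77 above it.

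In brown fat the same genes lay close to 0. The median was 0.11 over the 77 genes in the authors' deposited table, against 0.01 over all 15363 genes and 0.05 over the 7682 genes at or above the median expression, and 52 of 77 were above 0 (51.0% over all genes). None was called at an adjusted p of 0.05 in limma, against 0.013% of all genes. At an unadjusted p of 0.05, 3 of 77 passed, all above 0, against 6.51% of all genes (3.33% above 0 and 3.18% below). The large subunit had a median of 0.10 (34 of 48 above 0) and the small subunit 0.12 (18 of 29 above 0). Standard errors were smaller than in white fat, with a median of 0.26 against 0.40 there. The 95% interval lay wholly between -1 and 1 for 66 of 77 genes in brown fat and for 6 of 77 in white fat, so for most of the family a change of 2-fold between the sexes' KO effects lies outside the brown fat interval.

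The 3 brown fat genes with an unadjusted p under 0.05 were Mrpl2, a core protein beside the peptidyl transferase centre, Mrps15 and Mrpl34. Mrpl2 had 0.70 ± 0.29 (0.12 to 1.28, adjusted p = 0.690), Mrps15 0.50 ± 0.22 (adjusted p = 0.731) and Mrpl34 0.33 ± 0.16 (adjusted p = 0.756) according to the authors' deposited table. In white fat the authors' deposited table put Mrpl2 at 0.91 ± 0.46 and Mrps15 at 0.94 ± 0.34, so these genes lay above 0 in both depots. This is not particular to them, as 73 of 77 members were above 0 in white fat. The sign was the same in both depots for 52 of 77 members, against 54.6% of shared genes. The lowest brown fat value was that of Mrpl23, at -2.10 ± 1.15 (-4.44 to 0.24) in the authors' deposited table, at a mean log2 expression of 1.14. Mrps28 was lowest in the small subunit at -0.83 ± 1.13, and Mrps21 was highest at 1.18 ± 0.78, both in the authors' deposited table and both with intervals that include 0. The other members chosen for a small p or a high value in brown fat were all above 0. For the large subunit the authors' deposited table gave Mrpl27 0.63, Mrpl12 0.27 and Mrpl35 0.27. For the small subunit it gave Mrps36 0.52, Mrps25 0.38, Mrps31 0.34 and Mrps6 0.30. Their adjusted p from limma lay between 0.801 and 0.948. Mrpl45 (-0.33 ± 0.27), Mrpl19 (-0.33 ± 0.30), Mrpl48 (-0.29 ± 0.24), Mrpl1 (-0.20 ± 0.27) and Mrpl49 (-0.15 ± 0.31) were the other large subunit genes farthest below 0 in the authors' deposited table for brown fat. Among small subunit genes, Mrps23 had -0.25 ± 0.23, Mrps18b -0.17 ± 1.19, Mrps18a -0.16 ± 0.31, Mrps33 -0.12 ± 0.26 and Mrps27 -0.11 ± 0.25 in the authors' deposited table. The intervals of these large and small subunit genes below 0 all include 0.

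The depots were then compared gene by gene, as the white fat interaction minus the brown fat interaction. For 72 of 77 genes the difference was above 0 (58.4% of the 14502 genes in both tables), and its median was 0.65 against 0.20 over all shared genes. None passed an adjusted p of 0.05 (two-sided test on the summed squared errors, Benjamini-Hochberg over shared genes), against 0.248% of shared genes (0.0896% above 0 and 0.159% below). At an adjusted p of 0.10 the count was also 0, against 1.62% (0.696% above 0 and 0.924% below). At an unadjusted p of 0.05, 14 of 77 passed, all above 0, against 15.7% of shared genes (9.73% above 0 and 6.00% below). With each table taken relative to its median, 8 of 77 (10.4%) had an unadjusted p under 0.05, against 14.7% of shared genes. All 8 were above 0, as were 6.69% of shared genes at that threshold. Mrps2 had the smallest p: its interaction was 1.31 ± 0.45 in white fat and -0.09 ± 0.20 in brown fat in the authors' deposited tables, a difference of 1.40 ± 0.49 (0.37 to 2.43, adjusted p = 0.182). For Mrpl16 the difference was 1.26 ± 0.45 (adjusted p = 0.188), for Mrps7 1.03 ± 0.39 (adjusted p = 0.192) and for Mrpl49 1.05 ± 0.41 (0.22 to 1.88). Mrpl28 differed by 1.26 ± 0.49 (adjusted p = 0.217) and Mrps18a by 1.83 ± 0.73 (adjusted p = 0.233). The intervals given for Mrps2 and Mrpl49 had to leave out 0, because these genes were chosen for a low unadjusted p. The large subunit had a median difference of 0.62 (45 of 48 above 0) and the small subunit 0.66 (27 of 29). The test takes the tables as independent, and whether both depots came from the same mice was looked for (not given in the sources used here). Across genes the rank correlation of both interactions was 0.13 (Spearman, 77 genes that share libraries within a depot), against 0.09 over all shared genes.

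At a mean log2 expression of 5 or more, members differed among themselves by about as much as a single member's standard error. They share libraries within a depot, so their errors need not be independent, and whether members truly differ was not tested. Among the 59 genes that averaged a log2 expression of 5 or more in white fat, the interactions had a standard deviation of 0.36, and the median standard error was 0.35. In brown fat these were 0.20 and 0.25 for 68 genes. By level, the 17 white fat genes at a mean log2 of 6 or more had a median of 0.68 and were all above 0, and the 42 genes from 5 to under 6 had 0.72 with 41 above 0. The 9 genes from 4 to under 5 had a median of 0.85, and the 9 genes below 4 had 1.14 with 3 below 0 and standard errors of 0.44 to 1.29. The 4 genes below 0 in white fat included Mrpl23, Mrpl22 and Mrps10 of this last set, while Mrpl52 had a mean log2 expression of 5.74.

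**Figure D2:**
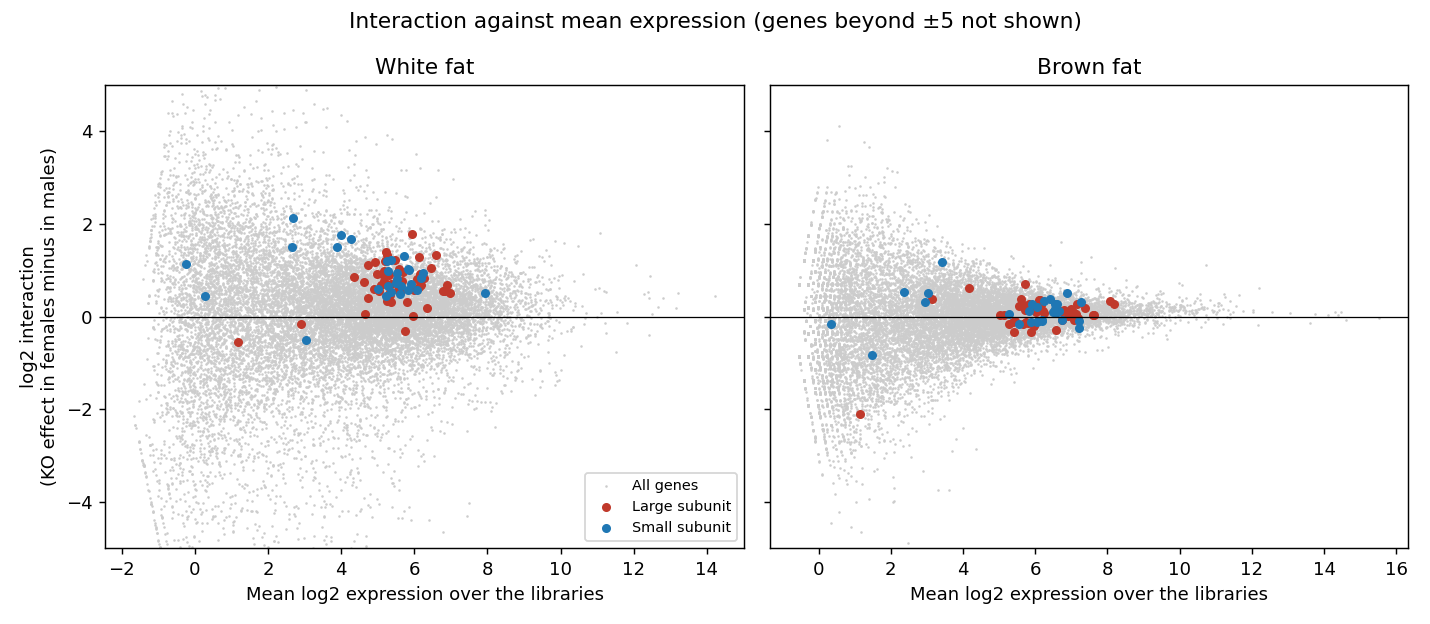
Log2 interaction (y axis, KO effect in females minus that in males) against the authors' mean log2 expression (x axis) in white fat (left) and brown fat (right), for all genes (grey) and for the large (red) and small (blue) subunit genes. Most members sit above 0 in white fat at a mean log2 of 4 to 7, and near 0 in brown fat.

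Mitochondrial ribosomal proteins that carry other symbols were also above 0 in white fat, without passing the test. Dap3, a GTP-binding protein of the small subunit, had 0.71 ± 0.32 (adjusted p = 0.198) and Ptcd3, with pentatricopeptide repeats, 1.14 ± 0.65 (adjusted p = 0.290) according to the authors' deposited table for white fat. Aurkaip1 (0.32 ± 0.27), Chchd1 (0.23 ± 0.24) and Gadd45gip1 (0.50 ± 0.55), the last of the large subunit, were also above 0 there in the authors' deposited table. In brown fat all 5 were above 0 as well, between 0.11 and 0.56, and none was called in either depot (limma, 1 of 5 in white fat and 0 of 5 in brown fat at an unadjusted p of 0.05). Mitochondrial translation factors had 14 of 15 listed genes above 0 in white fat (median 0.81), and 1 of 15 was called, against 4.75% of all genes. At an unadjusted p of 0.05, 5 of 15 passed (33.3%), against 24.5% of all genes. That gene was Gfm1, the elongation factor that moves the ribosome along the mRNA, at 1.89 ± 0.50 (adjusted p = 0.0487) according to the authors' deposited table. Mtrf1, a release factor, had 1.63 ± 0.50 (adjusted p = 0.0695) and Taco1, a translational activator of a complex IV subunit, 2.04 ± 0.67 (adjusted p = 0.0879) according to the authors' deposited table. In brown fat the factors had a median of 0.16, with 11 of 15 above 0 and 0 called (limma, 0 of 15 also at an unadjusted p of 0.05). Slirp had the smallest p there, at 0.27 ± 0.28 in the authors' deposited table.

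Among factors that build the mitochondrial ribosome and modify its RNA, 21 of 27 were above 0 in white fat, with a median of 0.50. None was called (limma), and 4 of 27 (14.8%) had an unadjusted p under 0.05, against 24.5% of all genes. Rpusd3, a pseudouridine synthase, had 1.72 ± 0.48 (adjusted p = 0.0550), Mtg1, a GTPase of large subunit assembly, 0.99 ± 0.33 (adjusted p = 0.0882) and Mpv17l2 0.82 ± 0.29 (adjusted p = 0.105) according to the authors' deposited table. In brown fat 14 of 27 were above 0 with a median of 0.04, and 0 of 27 passed even unadjusted. Genes of mitochondrial transcription and DNA upkeep had 5 of 8 above 0 in white fat (median 0.44) and 4 of 8 in brown fat (0.17), with none called (limma, 2 of 8 and 0 of 8 at an unadjusted p of 0.05). Among them Twnk, the replicative helicase, had 2.47 ± 1.10 (adjusted p = 0.187) and Polg2, a polymerase subunit, -1.28 ± 0.61 (adjusted p = 0.214) according to the authors' deposited table of white fat. Of 13 genes for the mRNAs that these ribosomes translate, 12 were listed in white fat, all above 0 with a median of 1.61. Their values ran from 0.40 to 3.63, at mean log2 expression of -1.22 to 12.46. In brown fat 9 of 13 were above 0, with a median of 0.06. None was called in either depot (limma, 6 of 12 and 2 of 13 at an unadjusted p of 0.05). Over all genes, 24.5% in white fat and 6.51% in brown fat had an unadjusted p under 0.05.

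Cytosolic ribosomal protein genes, which build the ribosomes that make these proteins, lay on the other side of 0. In white fat 54 of 79 were called below 0 and 0 above, with a median of -1.19, against 3.69% of all genes called below 0 and 1.06% called above. In brown fat their median was -0.00, 39 of 79 were above 0, and none was called (limma, 4 of 79 at an unadjusted p of 0.05, against 6.51% of all genes). The 77 mitochondrial ribosomal protein genes thus had a white fat median of 0.76 where the cytosolic set had -1.19, and both sets were near 0 in brown fat. The lymphocyte markers lay below 0 in the same white fat table, and their part in either value was not tested.

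**Figure D3:**
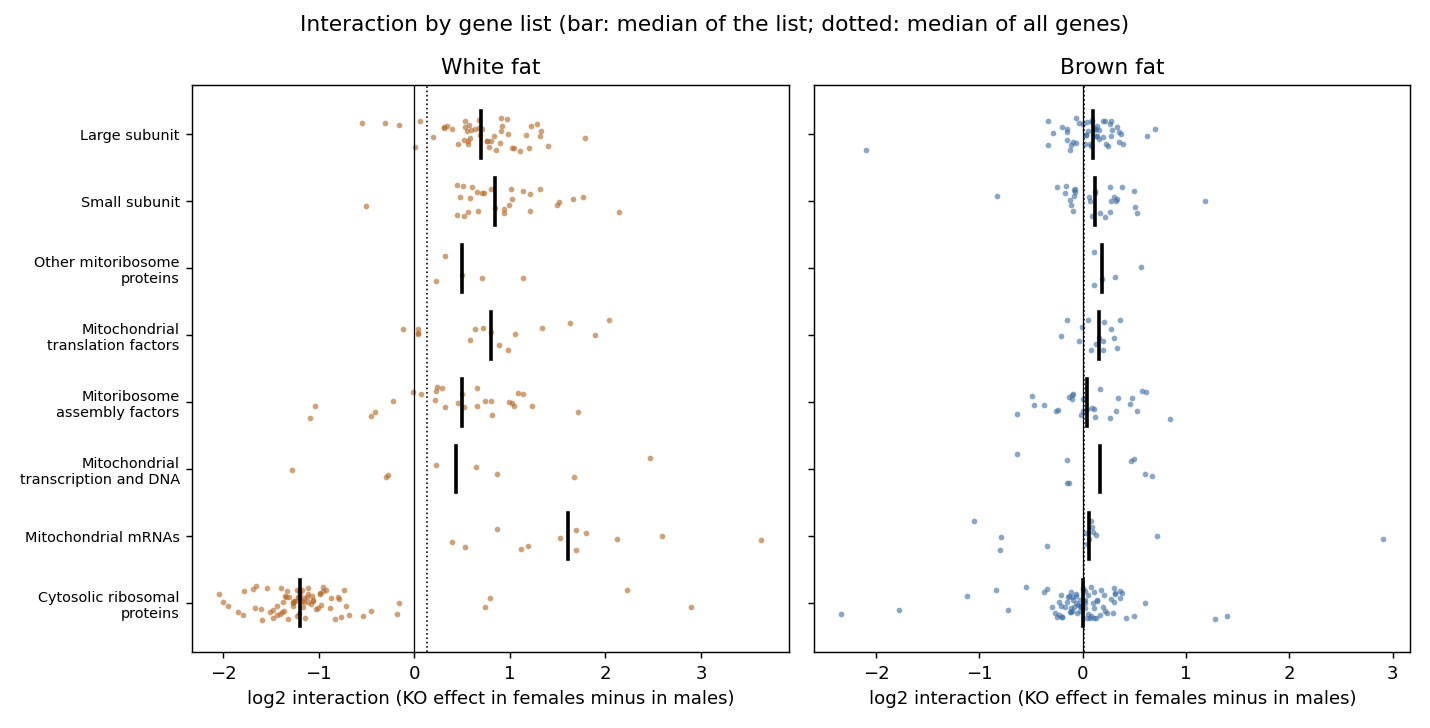
Log2 interaction (x axis, KO effect in females minus that in males) of each gene by list (y axis) in white fat (left) and brown fat (right). Black bars are list medians, and the dotted line is the median of all genes (0.13 in white fat, 0.01 in brown fat). In white fat the mitochondrial lists have medians of 0.44 to 1.61, and the cytosolic ribosomal proteins -1.19.

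Many mitochondrial ribosomal protein genes stand head to head with another gene, and in white fat the members of such pairs were above 0 more uniformly than their neighbours, a difference that was not tested. In the coordinates of the authors' deposited table (GRCm39), 29 of 77 members (37.7%) had a protein-coding gene on the opposite strand whose start lay within 1000 bp, against 13.5% of 13793 protein-coding genes. Outside the family there were 27 such neighbours, with starts 26 to 935 bp away. The rule set only the strand and the distance of starts, so some of these pairs overlap. All 27 members beside them were above 0 in white fat (median 0.68), while 16 of the 27 neighbours were above 0 (median 0.05), close to the 55.9% and 0.13 of all genes. Mrpl49 starts 59 bp from Fau, which encodes a cytosolic ribosomal protein fused to a ubiquitin-like protein. In the authors' deposited table Fau was called below 0, at -1.21 ± 0.30 (adjusted p = 0.0416), beside 0.90 ± 0.28 for Mrpl49. The other called neighbour was Tmem63b, which overlaps Mrpl14, at 2.87 ± 0.62 (adjusted p = 0.0357) according to the authors' deposited table, where Mrpl14 had 0.78. Complex I subunits are neighbours of 2 members: Ndufs6 of Mrpl36 (1.13 ± 0.49 beside 0.98) and Ndufb5 of Mrpl47 (0.62 ± 0.49 beside 1.20), in the authors' deposited table. Both overlap their member on the other strand. In white fat Ndufs6 had a mean log2 expression of 7.70 against 5.16 for Mrpl36, and Ndufb5 7.57 against 5.21 for Mrpl47. A pair within the family is Mrpl46 and Mrps11, which overlap, with starts 412 bp apart and interactions of 0.76 and 1.49 in the authors' deposited table.

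**Figure D4:**
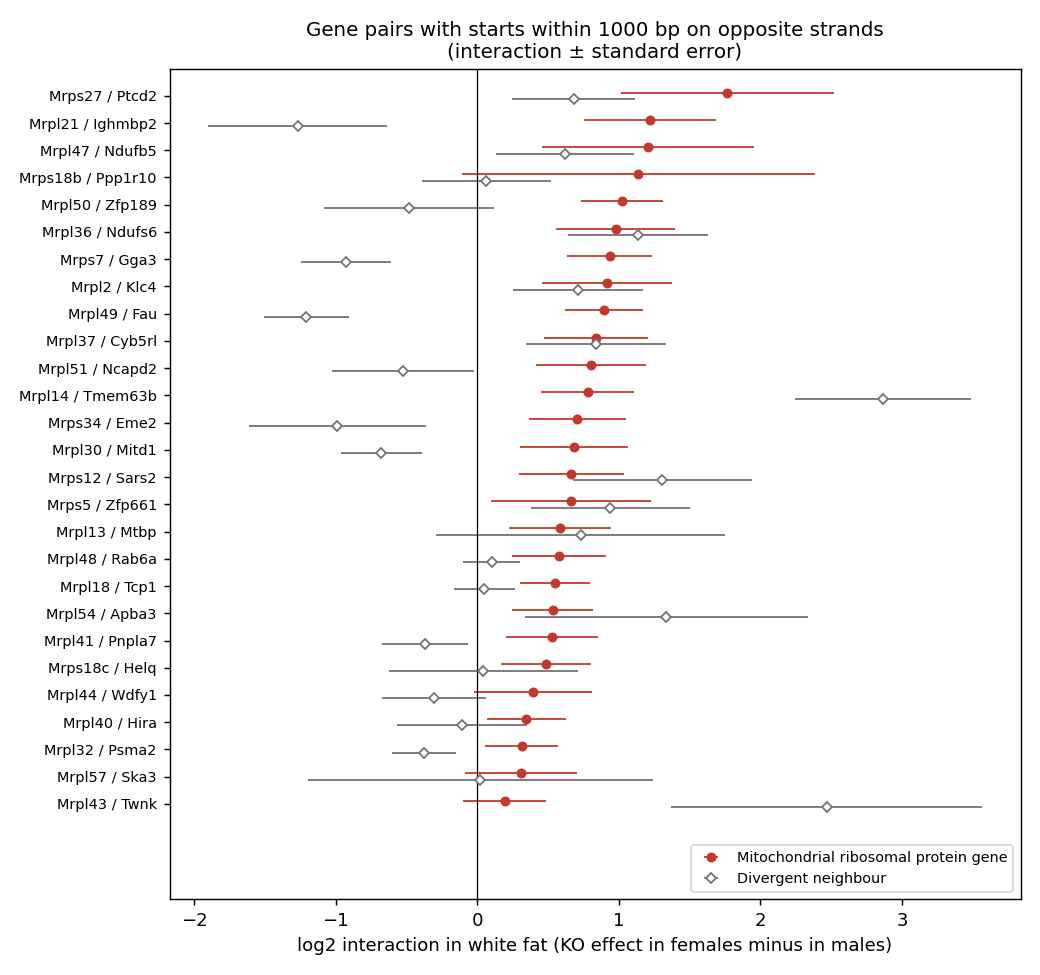
Log2 interaction in white fat (x axis, KO effect in females minus that in males, bars 1 standard error) of 27 mitochondrial ribosomal protein genes (red circles) and of the protein-coding neighbour that starts within 1000 bp on the other strand (open diamonds). All 27 members are above 0, and 16 of 27 neighbours are.

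Some of these genes also overlap a neighbour. In the deposited coordinates 24 of 77 members (31.2%) overlapped another listed gene, 20 of them on the other strand, against 26.4% of protein-coding genes. The strand setting of the counting was looked for (not given in the sources used here), so reads of such pairs may not be told apart. The 24 overlapping members had a white fat median of 0.73 and the other 53 had 0.76. Among the genes named above, Mrpl14, Mrpl19, Mrpl36, Mrpl46, Mrpl47, Mrpl48, Mrpl49, Mrps7, Mrps11, Mrps18a, Mrps25 and Mrps27 overlap a gene of the other strand. Mrps6 and Mrps18c overlap a gene of their own strand. The table also lists 2 pseudogenes of the family, and the treatment of reads shared with such copies is unknown.

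Promoters were read to see which short motifs the family shares. RefSeq windows of 300 bases (250 before the start and 50 after it, build GRCm38.p6) matched 68 of 77 members by symbol, with 74 windows. Those without an entry were Mrpl13, Mrpl15, Mrpl19, Mrpl38, Mrpl4, Mrpl54, Mrps28, Mrps34 and Mrps35. On both strands, 4 motifs were searched: CCGGAAG, the core of ETS factors such as GABPA, AAGATGGC, the core of YY1, GCATGCGC, the core of NRF1, and CACGTG, the E-box. The first 3 factors are known for nuclear genes of mitochondria. The ETS core was in 33.8% of member windows, against 8.86% of all 32851 windows and 15.8% of those of protein-coding genes of the white fat table. For the YY1 core the shares were 16.2%, 2.75% and 3.98%, for the NRF1 core 10.8%, 2.71% and 4.69%, and for the E-box 9.46%, 7.15% and 9.46%. Large subunit windows held the ETS core in 29.8%, the YY1 core in 12.8% and the NRF1 core in 14.9%. For the small subunit these shares were 40.7%, 22.2% and 3.70%.

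Members with and without a motif were set side by side in white fat. The 25 members with an ETS core had a white fat median of 0.60 and the 43 without had 0.80. For the YY1 core the medians were 0.93 for 12 members with it and 0.68 for 56 without, and for the NRF1 core 0.66 for 8 with it and 0.77 for 60 without. No test was made of these differences. So that the core can be seen in members at both ends, the 100 bases before the start are given for 4 members above 0 in white fat and for 2 below 0 that hold the same core. Capitals mark the ETS core on either strand and, in Mrpl22, also the NRF1 core nearer the start. Each is on the strand of its gene: Mrps22 at chr9:98601680-98601779 (minus strand), Mrpl27 at chr11:94653691-94653790, Mrpl34 at chr8:71464826-71464925, Mrps18a at chr17:46110904-46111003, Mrpl22 at chr11:58171564-58171663 and Mrpl52 at chr14:54426809-54426908 (plus strand, all GRCm38.p6).
Mrps22: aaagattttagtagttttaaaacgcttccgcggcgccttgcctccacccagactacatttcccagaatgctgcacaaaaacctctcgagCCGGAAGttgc
Mrpl27: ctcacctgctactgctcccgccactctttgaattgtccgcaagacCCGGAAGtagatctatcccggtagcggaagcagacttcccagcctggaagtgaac
Mrpl34: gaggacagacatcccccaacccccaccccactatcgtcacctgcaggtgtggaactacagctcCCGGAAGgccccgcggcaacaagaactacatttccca
Mrps18a: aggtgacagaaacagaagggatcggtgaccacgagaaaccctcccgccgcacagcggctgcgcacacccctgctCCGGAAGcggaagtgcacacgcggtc
Mrpl22: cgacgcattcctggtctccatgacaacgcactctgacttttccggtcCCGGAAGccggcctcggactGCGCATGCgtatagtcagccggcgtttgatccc
Mrpl52: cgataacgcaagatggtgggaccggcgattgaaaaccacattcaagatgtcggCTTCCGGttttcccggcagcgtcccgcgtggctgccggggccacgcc

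The core began 11 bases before the start in Mrps22, 26 in Mrps18a, 37 in Mrpl34, 47 in Mrpl52, 53 in Mrpl22 and 55 in Mrpl27. Only cores within the 100 bases shown are placed here, so these distances do not describe the other members with the core. The white fat interactions were 0.99 for Mrps22, 1.66 for Mrps18a, 1.79 for Mrpl34 and 1.17 for Mrpl27, against -0.30 for Mrpl52 and -0.16 for Mrpl22, in the authors' deposited table. The sequence shared by Mrpl49 and Fau is shown because its genes stood on opposite sides of 0. By RefSeq's starts 191 bases lie between them, of which 72.3% are G or C, and none of the 4 motifs was in this stretch. It is given on the strand of Mrpl49, from the base next to the start of Fau to the base before that of Mrpl49 (chr19:6057756-6057946, minus strand, GRCm38.p6).
Mrpl49 upstream: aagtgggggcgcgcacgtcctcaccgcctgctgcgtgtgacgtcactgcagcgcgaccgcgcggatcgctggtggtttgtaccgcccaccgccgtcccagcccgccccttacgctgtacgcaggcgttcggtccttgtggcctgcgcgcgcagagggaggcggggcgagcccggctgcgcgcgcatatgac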

How the data were processed

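The labels list 12 white fat libraries in 4 groups of 3, and the brown fat table was used as the authors' comparison alone. The submitters' processing notes name featureCounts, limma and the build GRCm39. Versions, aligner, annotation, strand setting and normalisation were looked for (not given in the sources used here). Per the file headers, the deposited comparison tables hold limma's log2 interaction, average log2 expression, moderated t (a score), p-value and adjusted p-value, all as the authors fitted them. A Benjamini-Hochberg adjustment of the deposited p-value over each table gave back the deposited adjusted values. In all, 48 library columns with names that match no label were not used, so a planned fit of KO against WT within each sex was not made, and depth is unknown.

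Standard errors were computed as the log2 interaction over t, and 95% intervals used the total degrees of freedom that link t to p, 13.4 in white fat and 33.9 in brown fat. Depots were compared by the difference over the root of the summed squared errors, two-sided, on degrees of freedom after Welch and Satterthwaite. This step was tested on simulated data with errors drawn independently for each depot, which cannot show what shared mice would do to it. The labels do not say that libraries are separate animals, so the spread behind each p-value may be technical. No filter was added. Genes called had an adjusted p under 0.05.

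The members, the gene lists and the rules were chosen with earlier results of these data known. Named were the members with the smallest p (5 for each subunit and depot), the 2 highest and 2 lowest, up to 6 of opposite sign, the 3 smallest p between depots in each subunit, the Mrps18 paralogs, and up to 3 of each other list. Mrpl14, Mrpl36, Mrpl46, Mrpl47 and Mrps11, the neighbours of members and the promoters shown were chosen after their values were seen. Sequences are from RefSeq. Computation used scipy 1.17.1, pandas 2.3.3 and numpy 2.4.6 under Python 3.11.15, and figures matplotlib 3.10.9.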

Additional observations from a re-analysis of the deposited data

How the results depend on the processing

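No paired analysis was possible because the library columns match no label, and for the same reason no library could be left out. The count of 0 called members in white fat stayed 0 when p was adjusted over protein-coding genes only (lowest member adjusted p 0.0542), over genes at or above the median expression (0.0519) and after centring on the median of all genes (0.0775). Centring subtracts 0.13 from every gene, and 73 of 77 members were above 0, so it could hardly add a call. Keeping only members that overlap no other gene, chosen after seeing the data, cannot add a call and is no check of that 0. It became 13 at an adjusted p of 0.10 and 31 at an unadjusted p of 0.05. In brown fat the count of 0 became 3 at an unadjusted p of 0.05, and the count of 0 between depots became 14. At an adjusted p of 0.10, over protein-coding genes only, over genes at or above the median expression and after centring, both stayed 0. The subunit medians kept their sign under all 4 alternatives, that of place in the ribosome chosen after seeing the data: 0.56 to 0.73 for the large and 0.71 to 0.89 for the small subunit in white fat, and 0.09 to 0.11 for each in brown fat. Of the named members, Mrpl19 in white fat changed sign, to -0.067 on centring, a shift of 0.13 set by that step's construction. The 95% interval of a member reached 0.86 to each side in white fat and 0.53 in brown fat (medians), which limits what can be said of single genes.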
